A study of Mus musculus with 4 samples.

Results

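Livers of mice that had received diethylnitrosamine (DEN) and a control diet were compared with livers of mice on the same control diet without DEN. The comparison took 2 of the 4 arrays of the study, which crossed DEN with a diet holding 0.2% cholic acid (CA), and covered all 18194 genes that the array names through a probe set with a single symbol. Members were thus all named genes, and the quantity reported for each is its log2 expression value in the DEN pool minus that in the pool without DEN. The 4 groups were DEN with control diet, control diet alone, DEN with CA diet, and CA diet alone, all mice being 10 months old. Each array was hybridised with total liver RNA pooled from 3 to 5 mice, so each group is 1 sample. Mice of a pool cannot be told apart, no test was possible, and differences below are those between 2 pools, without a replicate check. The dose and time of DEN, strain, sex and hour of killing are not given in the labels, nor is the part of each liver that was tumour.

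DEN is a chemical carcinogen that hepatocytes activate, chiefly through the cytochrome Cyp2e1 in the pericentral zone, to a product that ethylates DNA. A mouse exposed early in life develops hepatocellular foci, adenomas and carcinomas months later, and such lesions are known to take up again the fetal liver programme, to divide, and to lose part of the drug-metabolising equipment of the adult hepatocyte. In bulk liver, fewer cells of a type and less RNA per cell cannot be told apart, and neither can a few cells with a high level and many cells with a low one.

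The deposited values are on a log2 scale with no detection call. Values under 4.851, the median over all probe sets and arrays and here called the floor, were raised to it before differences were taken. A fold that involves such a value is given as "at least". Of the named genes 12101 reached the floor on 1 of the 2 arrays or both, and 6093 lay under it on both. A gene was called from a 2-fold difference on. On this rule 559 genes were higher in the DEN pool, 3.07% of all named genes, and 102 were lower, 0.561%. Among the genes at or above the floor on 1 of the arrays the shares were 4.62% and 0.843%. Median centring of the arrays gave 439 higher and 163 lower genes, since this setting moved the median difference of the genes above the floor by -0.13. The large differences were nearly all on the higher side. Of the higher genes 113 passed 4-fold, 49 passed 8-fold and 15 passed 16-fold, whereas of the lower genes 7 passed 4-fold, 1 passed 8-fold and 0 passed 16-fold. The higher genes had a median level of 7.63 in the DEN pool and 5.86 without DEN, and 117 of them lay under the floor without DEN. The lower genes had a median level of 7.65 in the DEN pool and 8.89 without DEN, and only 2 of them lay under the floor in the DEN pool. At the 2-fold limit D830012I24Rik was just inside (1.001) and Oxct1 just outside (0.9997) on the higher side, and Oxa1l (-1.0004) and Tmem144 (-0.995) on the lower side.

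**Figure D1:**
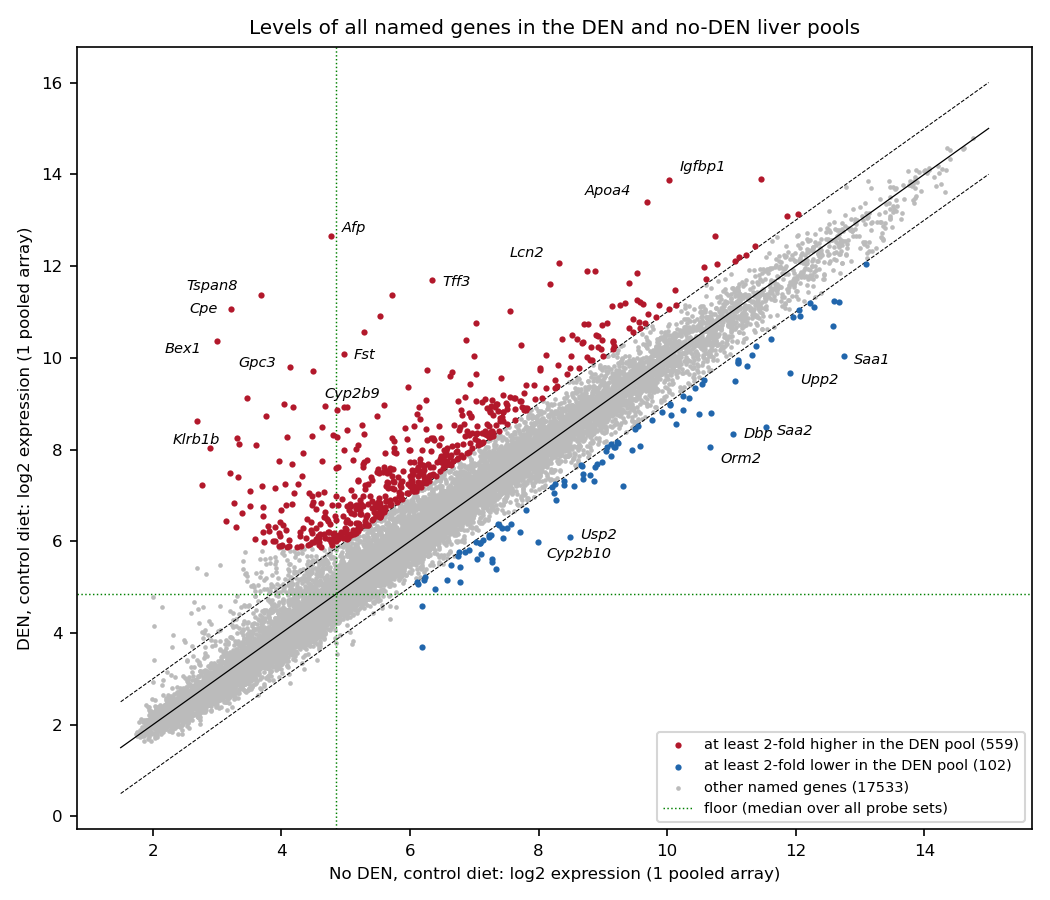
Log2 expression of all named genes in the pool with DEN (vertical axis) and without DEN (horizontal axis) on the control diet, 1 array each. The solid line marks equality, dashed lines mark 2-fold, and dotted lines mark the floor; 559 genes lie on the higher side and 102 on the lower side, and the widest distances are all above the line.

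Hepatocyte markers were high in both pools. Albumin (Alb) stood at 14.79 with DEN and 14.75 without, and of 7 hepatocyte markers 0 were called either way. The summed linear level of these 7 markers was 113031 with DEN and 111849 without. The labels give no sex, and on all 4 arrays Xist lay under the floor while the Y-linked Eif2s3y was between 9.27 and 9.60. As a technical yardstick, differences of 18 hybridization control probe sets between the 2 arrays reached 0.203. Over the autosomes and X, the share of genes called higher ran between 2.18% on chromosome 7 and 4.17% on chromosome 12.

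The genes with the widest higher differences encode proteins of several kinds, from enzymes of lipid, steroid and carbonyl metabolism to surface and secreted proteins. Afp, the alpha-fetoprotein of fetal liver and liver tumours, held the widest one, at 12.65 with DEN and 4.77 without, at least 222-fold higher, while its 4 other probe sets differed by 0.00 to 6.21. Tspan8, a tetraspanin of epithelia, was at 11.38 with DEN and 3.69 without, at least 92.2-fold higher, and its 4 other probe sets differed by 0.88 to 3.59. Cpe, the carboxypeptidase that trims prohormones, was at 11.06 with DEN and 3.22 without, at least 73.8-fold higher, but its other probe set differed by -0.08. These 3 genes lay under the floor without DEN, so their folds are bounds. Scd2, a desaturase of fatty acids, was at 11.37 with DEN and 5.73 without, 49.9-fold higher, with 2 other probe sets at 0.00 and 1.99. Bex1, a small protein best known from neurons, was at 10.37 with DEN and 2.99 without, at least 45.9-fold higher, and Tff3, a secreted trefoil peptide of mucous epithelia, was at 11.70 with DEN and 6.34 without. Gpc3, a glypican of fetal liver, was at 9.80 with DEN and 4.14 without, at least 30.96-fold higher.

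Akr1c18, the hydroxysteroid dehydrogenase that inactivates progesterone, stood at 10.92 with DEN and 5.53 without, a 41.7-fold difference. Ly6d, a surface protein anchored by a lipid and best known from lymphocytes and keratinocytes, stood at 10.56 with DEN and 5.28 without, 38.6-fold higher. Akr1c18 and Ly6d were above the floor on both arrays, so that these folds are measured and not bounds. Kif5c, a kinesin heavy chain best known from neurons, was at 9.003 with DEN and 4.034 without, at least 17.8-fold higher, and its 3 other probe sets differed by 0.00 to 2.28. Wfdc15b, a small secreted protein with a whey acidic protein domain, was at 8.96 with DEN and 4.68 without, at least 17.2-fold higher. Cbr3, a carbonyl reductase, was 15.4-fold higher (8.92 with DEN, 4.98 without). Igfbp1, the insulin-like growth factor binding protein that the liver secretes in fasting, was already high without DEN at 10.03 and stood at 13.88 with DEN, 14.5-fold higher. Cyp2b9, a cytochrome P450 of female mouse liver, was at 8.85 with DEN and 4.87 without, 15.8-fold higher.

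The same genes were read in the other pair of pools, with and without DEN on the CA diet, which shares no array with the control-diet pair. Afp differed by 7.31 on the log2 scale there, against 7.80 on the control diet. Akr1c18 differed by 5.07 on the log2 scale there and Ly6d by 5.03, against 5.38 and 5.27 on the control diet. Cyp2b9 differed by 1.37 in that pair, with levels of 8.56 with DEN and 7.20 without, so the pool on CA diet alone already carried more of it than the pool on control diet alone. Of the 20 genes with the widest higher differences, all were called higher in the CA-diet pair too.

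**Figure D2:**
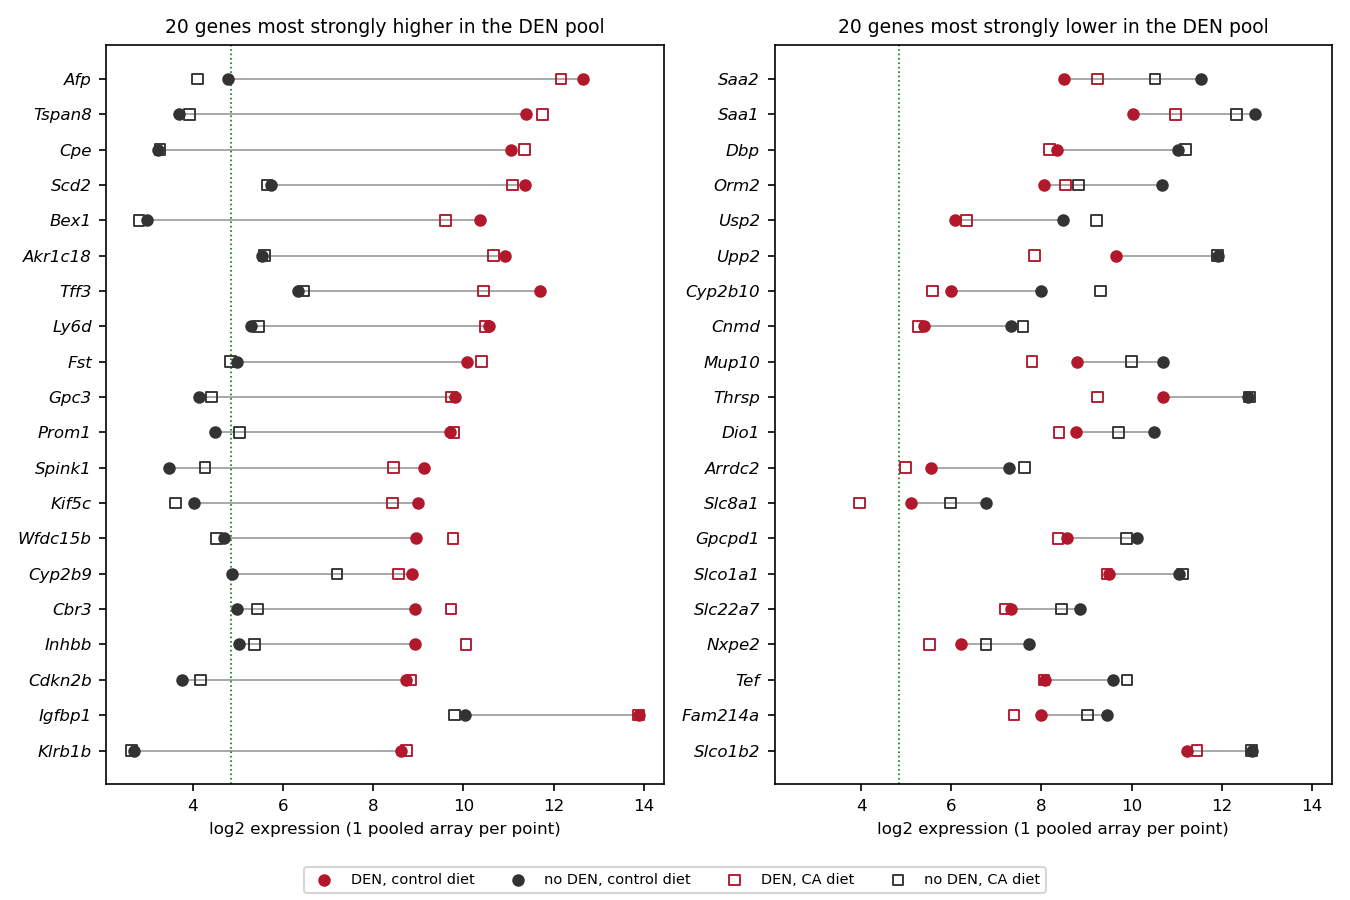
Log2 expression of the 20 genes most strongly higher (left) and the 20 most strongly lower (right) in the DEN pool on control diet, with 1 point per array for all 4 pools; the dotted line is the floor. On the left the 2 DEN pools lie close to each other and far from both pools without DEN, except for Cyp2b9, whose level on CA diet alone is 7.20; on the right the distances are shorter and Orm2 is nearly as low on CA diet alone (8.82) as on CA diet with DEN (8.54).

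Tumour and fetal markers held the highest share of calls among the lists with over 20 members. Of its 33 measured members 21 were higher (63.6%, against 3.07% of all named genes) and 0 were lower, with a median difference of 2.21 against 0.00 over all named genes. Several of its members were listed because earlier results of these data had shown them, so the count is no independent evidence of its direction. Cd24a, a surface glycoprotein of progenitor cells, was at 7.92 with DEN and 5.62 without, 4.92-fold higher. Sox9, the transcription factor of bile duct and progenitor cells, was at 6.05 with DEN and 4.74 without, at least 2.30-fold higher. Fetal markers did not all share this pattern. Igf2, the fetal insulin-like growth factor, was at 5.37 with DEN and 4.93 without, and Dlk1, a Notch-like surface protein of fetal hepatoblasts, lay under the floor in both pools at 4.00 and 3.54. Of 19 imprinted growth genes 3 were higher, namely Plagl1, Grb10 and Meg3. H19, which the array lists only through a probe set with a second symbol, is not among the 19. Plagl1, a zinc finger regulator of the imprinted network, was at 7.47 with DEN and 6.05 without, and its 2 other probe sets were at the floor. Grb10, an adaptor that restrains insulin signalling, was at 6.59 with DEN and 5.22 without, with 2 other probe sets at the floor. Meg3, a maternally expressed noncoding RNA, was at 8.61 with DEN and 7.44 without, and its 10 other probe sets differed by 0.00 to 2.20.

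Among genes of the cell cycle, those of mitosis held most of the calls. Mitotic genes peak in the last phases of the cell cycle, and their promoters are known to carry a cell cycle homology region (core TTTGAA) and CCAAT boxes, through which the DREAM and MuvB complexes and NF-Y act. The promoters of the 4 called members with the widest differences are shown, with these letters marked. They are RefSeq promoters of the GRCm38.p6 build, covering 250 bases before and 50 bases after the annotated start and printed in the direction of transcription. Ube2c lies at chr2:164769679-164769978 on the plus strand, Mki67 at chr7:135716330-135716629, Cdk1 at chr10:69352863-69353162 and Cdc20 at chr4:118437294-118437593, the last 3 on the minus strand. Capitals mark TTTGAA and CCAAT on either strand (so also TTCAAA and ATTGG).
Ube2c: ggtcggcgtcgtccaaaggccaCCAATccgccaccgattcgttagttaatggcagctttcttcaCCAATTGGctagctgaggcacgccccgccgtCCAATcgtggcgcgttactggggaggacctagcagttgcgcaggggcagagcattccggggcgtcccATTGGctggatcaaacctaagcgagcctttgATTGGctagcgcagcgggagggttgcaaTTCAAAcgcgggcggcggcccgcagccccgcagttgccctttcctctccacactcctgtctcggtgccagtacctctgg
Mki67: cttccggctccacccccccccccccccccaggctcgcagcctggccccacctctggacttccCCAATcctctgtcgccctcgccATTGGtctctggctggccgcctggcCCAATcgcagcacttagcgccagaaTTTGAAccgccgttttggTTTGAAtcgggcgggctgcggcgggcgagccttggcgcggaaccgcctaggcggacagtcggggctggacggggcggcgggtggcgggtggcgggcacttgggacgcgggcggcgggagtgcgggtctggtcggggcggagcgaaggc
Cdk1: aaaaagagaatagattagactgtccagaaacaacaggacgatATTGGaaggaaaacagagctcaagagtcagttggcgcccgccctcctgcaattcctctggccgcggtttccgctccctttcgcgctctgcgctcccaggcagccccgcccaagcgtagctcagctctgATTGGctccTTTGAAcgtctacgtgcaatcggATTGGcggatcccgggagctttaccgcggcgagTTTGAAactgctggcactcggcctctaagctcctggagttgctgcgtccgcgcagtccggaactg
Cdc20: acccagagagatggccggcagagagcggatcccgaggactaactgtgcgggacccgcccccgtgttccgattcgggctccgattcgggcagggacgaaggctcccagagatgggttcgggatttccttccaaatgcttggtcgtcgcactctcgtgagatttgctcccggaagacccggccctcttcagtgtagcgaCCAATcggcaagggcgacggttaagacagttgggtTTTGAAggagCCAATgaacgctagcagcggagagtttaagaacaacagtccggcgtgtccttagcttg

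Ube2c held 1 match of TTTGAA and 6 of CCAAT, with 2 bases shared by a pair of CCAAT matches, and Mki67 held 2 and 3. Cdk1 held 2 and 3 matches and Cdc20 held 1 and 2. A promoter was found for 44 of the 54 measured mitosis genes, some with several starts. TTTGAA was in 36 of their 48 promoters (75%), against 17.9% of all 32851 promoters of this length. CCAAT was in 36 of the 48 (75%), against 37.4% of all promoters. For the called members alone the counts were 16 of 20 promoters for TTTGAA and 17 of 20 for CCAAT. The E-box CACGTG, searched for comparison, was in 3 of the 48 (6.25%) and in 7.15% of all promoters, and the AP-1 letters TGACTCA were in 0 of the 48 and in 5.20% of all. These matches describe the list and not the DEN difference.

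Of the 54 mitosis genes 22 were higher (40.7%) and 0 lower, with a median of 0.71, and 37 had a positive difference against 4 with a negative one. Ube2c, the ubiquitin-conjugating enzyme of the anaphase-promoting complex, was at 7.43 with DEN and 4.32 without, at least 5.96-fold higher. Mki67, which coats mitotic chromosomes and is the standard marker of proliferation, was at 7.15 with DEN and 3.90 without, at least 4.92-fold higher. Cdk1, the mitotic kinase, was at 7.12 with DEN and 5.08 without, 4.10-fold higher, and Cdc20, the activator of the anaphase-promoting complex, was at 7.50 with DEN and 5.49 without, 4.04-fold higher. Several of these genes lay near or under the floor without DEN, so that their folds rest on low levels. Top2a, the topoisomerase that untangles sister chromatids, was at 6.79 with DEN and 4.06 without, but its 2 other probe sets differed by 0.00 and 0.09. With each gene taken as the mean over its probe sets, 11 members were called and the median was 0.00. In the CA-diet pair 9 of the 54 were higher, all of them among the 22, and the median was 0.38. Cdk1 differed by 0.61 there, with levels of 6.91 with DEN and 6.29 without.

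Of 36 DNA replication genes 3 were higher and 1 was lower, with a median of 0.11. Mcm6 and Mcm5, subunits of the replicative helicase, were 2.91-fold and 2.16-fold higher, and Rrm2, the small subunit of ribonucleotide reductase, was 2.08-fold higher. Mcm10, a replication initiation factor that the male-biased liver list also holds, was at 8.81 with DEN and 9.91 without, 2.15-fold lower, whereas its 2 other probe sets differed by -0.12 and 0.00. Pcna, the sliding clamp of the DNA polymerases, was at 9.52 with DEN and 9.29 without, and Mcm2 at 7.25 and 6.81. DNA repair genes held 1 higher and 0 lower call among 47 members, of which 37 reached the floor on 1 array or both. They include genes for the ethylated bases that DEN leaves, and their median difference was 0.00. Mgmt, the alkyltransferase that repairs such bases directly, was at 6.996 with DEN and 7.366 without.

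Among regulators of the G1 phase a single driver and several brakes were higher. Of 26 members 5 were higher and 0 lower. Ccnd1, cyclin D1, was at 8.91 with DEN and 7.20 without, 3.29-fold higher, with 2 other probe sets at 1.08 and 1.54. Cdkn2b, the CDK4/6 inhibitor p15, was at 8.72 with DEN and 3.76 without, at least 14.6-fold higher, and Cdkn2c, the related inhibitor p18, was at 7.60 with DEN and 6.51 without. Cdkn1a, the inhibitor p21 and a classic target of the tumour suppressor p53, was at 8.26 with DEN and 5.72 without, 5.83-fold higher. Myc stood at 7.29 with DEN and 6.68 without and was not called. In the CA-diet pair Cdkn2b differed by 3.98, but Ccnd1 by 0.39 only, its level on CA diet alone being 8.38. Of 29 p53 targets 8 were higher (27.6%) and 0 lower. Btg2, an antiproliferative gene that is also an immediate early gene, was at 10.037 with DEN and 6.997 without, 8.22-fold higher. Psrc1, a spindle protein, was at 7.76 with DEN and 3.96 without, at least 7.49-fold higher, and its 2 other probe sets differed by 0.00 and 0.62. Phlda3, an inhibitor of AKT, was 2.51-fold higher. Mdm2, the p53 ubiquitin ligase and the gene most directly under p53, was at 8.37 with DEN and 7.96 without.

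Immediate early genes were the list with the second highest share of calls among those with over 20 members. They are transcribed within minutes of growth factor, cytokine or stress signals, and encode the AP-1 factors and their relatives. Of 32 members 16 were higher (50%) and 0 lower, with a median of 0.85. Egr1, a zinc finger factor, was at 11.01 with DEN and 7.56 without, 10.9-fold higher. Jun was at 7.997 with DEN and 5.9997 without, 3.99-fold higher, and Fos at 7.34 with DEN and 5.19 without, 4.44-fold higher. Ier3, a survival gene of this class, was at 7.053 with DEN and 4.201 without, at least 4.60-fold higher. Dusp1, the phosphatase that ends such signals, was at 8.70 with DEN and 9.03 without. In the CA-diet pair 11 members were higher, and the levels without DEN were themselves higher on that diet. Fos was at 8.44 in the DEN pool on CA diet and 9.02 on CA diet alone, a difference of -0.58. Egr1 was at 11.76 in the DEN pool on CA diet and 9.23 on CA diet alone.

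Among growth and differentiation signals the activin branch of the TGF-beta family held the widest differences. Activins restrain hepatocyte growth, and follistatin binds and blocks them. Fst, follistatin, was at 10.07 with DEN and 4.97 without, 34.4-fold higher, and its other probe set differed by 3.85. Inhbb, the activin beta B chain, was at 8.92 with DEN and 5.02 without, 14.93-fold higher, although its other probe set differed by 0.20. The liver chains Inhbc and Inhbe, at 7.27 and 6.12 with DEN and 7.81 and 6.47 without, were not called. Id1, a helix-loop-helix inhibitor and BMP target, was at 7.93 with DEN and 5.78 without, 4.46-fold higher, and Tgfbr2, the type II receptor of TGF-beta, was at 10.31 with DEN and 8.68 without, 3.10-fold higher, but its 2 other probe sets differed by 0.00 and 0.20. Tgfb1 itself lay under the floor in both pools. Gdf10, a BMP relative, was 2.08-fold lower (5.07 with DEN, 6.13 without). In all, 8 of 32 members were higher and 1 lower.

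Of 20 EGF receptor ligands and HGF-Met genes 2 were higher, both of them ligands, and the list median was 0.00. Tgfa was at 8.81 with DEN and 7.44 without, 2.58-fold higher, with 2 other probe sets at -0.09 and 0.00. Btc, betacellulin, was at 6.28 with DEN and 4.99 without, 2.45-fold higher, with its other probe set at the floor. Neither ligand passed 2-fold when taken as the mean over its probe sets. The receptors were not called. Egfr was at 11.43 with DEN and 11.61 without, and Met at 9.27 with DEN and 9.84 without. Igfbp3, a carrier of IGF1, was at 8.34 with DEN and 7.03 without, 2.49-fold higher, whereas Igf1 was at 11.72 with DEN and 12.18 without. Of the genes of growth hormone and cytokine receptors, 4 of 30 were higher. Lepr, the leptin receptor, was at 7.68 with DEN and 4.16 without, at least 7.11-fold higher, with 3 other probe sets between 0.00 and 2.03. Osmr, the oncostatin M receptor, was at 7.57 with DEN and 5.50 without, with 2 other probe sets at the floor, and Socs2, a feedback inhibitor of growth hormone, was 2.30-fold higher. Socs3, the feedback inhibitor of IL-6 signalling, was at 8.26 with DEN and 7.44 without.

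Epithelial genes were higher in part, without a general increase of the bile duct programme. Of 24 ductular and progenitor genes 8 were higher (33.3%). Prom1 held the widest difference of this list, at least 4.86 on the log2 scale. Krt23, a keratin of injured liver, was at 6.78 with DEN and 5.09 without, 3.22-fold higher, Bicc1, an RNA-binding protein of renal and biliary tubules, was 2.44-fold higher, and Tm4sf4, a tetraspan protein, 2.56-fold higher. The cholangiocyte markers themselves were called in 2 of 9, Tspan8 and Sox9. Krt7, Cftr and Muc1 lay under the floor in both pools, Krt19 was at 4.94 with DEN and 4.21 without, and Epcam was at 5.36 with DEN and 5.41 without. The summed linear level of the 9 markers was 2954 with DEN and 265 without, and Tspan8 made up most of the larger sum. Krt18 and Krt8, the keratin pair of hepatocytes, were at 12.04 and 11.67 with DEN and 10.78 and 10.79 without, so that Krt18 was 2.40-fold higher and Krt8 was not called. Cdh1, E-cadherin, was at 10.72 with DEN and 8.99 without, 3.31-fold higher, and Cldn1 and Cldn14, claudins of tight junctions, were 2.68-fold and 2.51-fold higher. Of 14 markers of gallbladder and intestine 3 were higher, namely Cdh17, Krt20 and Vil1. Cdh17, the liver-intestine cadherin, was at 8.25 with DEN and 3.31 without, at least 10.5-fold higher, and Krt20, a keratin of gut epithelium, was at 6.31 with DEN and 3.29 without. The gut factors Cdx1 and Cdx2 and the mucin Muc2 were under the floor in both pools.

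Annexins, proteins that bind membranes in a calcium-dependent way, were higher in 5 of 11 members (45.5%) and lower in 0. Anxa2 was at 10.40 with DEN and 6.88 without, 11.5-fold higher, but its 2 other probe sets were at the floor. Anxa5 was at 11.21 with DEN and 9.58 without, 3.09-fold higher, and Anxa1, Anxa4 and Anxa3 were 2.76-fold, 2.41-fold and 2.31-fold higher. S100a6, a small calcium-binding protein that partners with annexins, was at 6.77 with DEN and 3.52 without, at least 3.78-fold higher. S100a8 and S100a9, the calprotectin chains of neutrophils, were at 6.19 and 6.37 with DEN and 3.71 and 4.59 without.

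Collagens were higher in 7 of 38 members (18.4%) and lower in 0. The called members held both fibril-forming chains and chains of the basement membrane. Col3a1 was at 10.05 with DEN and 8.12 without, 3.83-fold higher, and Col1a2 at 8.71 with DEN and 6.95 without, 3.40-fold higher. Col4a1, a basement membrane chain, was at 8.80 with DEN and 6.91 without, 3.70-fold higher, and Nid1, the nidogen that links laminin to collagen IV, was at 10.77 with DEN and 7.02 without, 13.4-fold higher, with 2 other probe sets at 0.00 and 2.28. Sparc, a collagen-binding matricellular protein, was 3.04-fold higher and Postn, periostin, 2.52-fold higher. Mmp14, a membrane-bound collagenase, was at 8.81 with DEN and 7.24 without, 2.97-fold higher. Timp1, the protease inhibitor raised in scarring liver, was at 5.32 with DEN and 4.46 without and was not called. Of 14 markers of stellate cells and fibroblasts 3 were higher, Acta2, Col1a2 and Tagln, and their summed level was 4755 with DEN and 3579 without. Acta2, the smooth muscle actin of activated stellate cells, was at 8.21 with DEN and 6.27 without, but its 2 other probe sets were at the floor. The stellate cell markers Des and Lrat were at 5.58 and 6.97 with DEN and 5.62 and 7.38 without, so that neither of these was called. The part of these cells in the matrix differences was not tested.

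Immune genes called higher included those of antigen presentation, macrophages, chemokines of T cells and immunoglobulins. Of 17 markers of Kupffer cells and macrophages 4 were higher and 0 lower, and 1, Itgam, was under the floor in both pools. Their summed level was 8512 with DEN and 4569 without. Cd14, the endotoxin co-receptor, was at 8.33 with DEN and 5.29 without, 8.24-fold higher, and Mpeg1, a pore-forming protein of macrophages, was at 11.16 with DEN and 9.27 without, 3.70-fold higher. Cd68 and Lyz2 were 2.54-fold and 2.21-fold higher. Of the resident Kupffer cell markers, Timd4 was at 5.11 in both pools, Clec4f differed by -0.0035, and Cd163 was at 6.41 with DEN and 7.08 without. Of the 11 markers of dendritic cells and MHC class II 4 were higher, all of them class II genes, and their summed level was 2625 with DEN and 873 without. H2-Ab1 was at 8.52 with DEN and 6.45 without, 4.18-fold higher, and H2-Aa was at 10.40 with DEN and 8.36 without, 4.12-fold higher. The dendritic cell markers Xcr1, Siglech and Ccr7 were under the floor in both pools, and Flt3 was at 5.10 with DEN and 5.24 without.

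Of 51 chemokines and receptors 6 were higher and 0 lower. Cxcl9, an interferon-induced chemokine that draws T cells, was at 9.60 with DEN and 6.62 without, 7.89-fold higher, and Ccl5, another T cell attractant, was at 7.62 with DEN and 5.26 without, 5.14-fold higher. Cxcl1, a neutrophil attractant, was at 10.50 with DEN and 8.52 without, 3.93-fold higher. Of 17 T and NK cell markers only Klrb1b was called, 8 were under the floor in both pools, and Cd3e and Cd4 were at 5.45 and 5.87 with DEN and 5.68 and 5.98 without. Their summed level was 855 with DEN and 384 without, and Klrb1b made up most of that difference. Of 12 B and plasma cell markers 2 were higher, and their summed level was 3421 with DEN and 2087 without. Jchain, the joining chain of secreted IgM and IgA, was at 7.67 with DEN and 5.26 without, 5.32-fold higher. Ighm was 2.62-fold higher, but it differed by only 0.15 on the log2 scale when taken as the mean over its probe sets. The B cell markers Cd79a and Ms4a1 were under the floor in both pools. Of immunoglobulin genes outside the list, chosen after their values were seen, Igha, the heavy chain of IgA, was at 8.75 with DEN and 6.81 without, 3.83-fold higher, with 2 other probe sets at 2.73 and 3.80. Igkv8-30, a variable segment of the kappa light chain, was 3.79-fold higher, though probe sets of such near-identical genes may read several of them. In the CA-diet pair Jchain, Ighm, Igha and Igkv8-30 differed by 0.91, 0.89, 0.83 and 0.70 and were not called. Of 10 neutrophil markers 2 were higher and 6, Elane and Cxcr2 among them, were under the floor in both pools, with a summed level of 404 with DEN and 299 without. Markers of endothelial cells were called in 1 of 16, Lyve1 (2.52-fold higher), with a summed level of 3494 with DEN and 2869 without. Exocrine pancreas markers were called in 0 of 9, with a summed level of 812 with DEN and 661 without, and 5 of them were under the floor in both pools. Erythroid markers were lower in 1 of 8, Car1, with a summed level of 500 with DEN and 776 without. Fat cell markers were called in 1 of 6, Fabp4, while Adipoq, Lep and Cidec were under the floor in both pools.

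Of 38 cytokines and NF-kB targets 8 were higher (21.1%) and 0 lower. Tnfrsf12a, the receptor of TWEAK and a regulator of progenitor cells, was at 9.70 with DEN and 6.65 without, 8.27-fold higher, and Il33, an alarmin, was at 7.73 with DEN and 5.28 without, 5.45-fold higher. Ltb, lymphotoxin beta, was 3.94-fold higher, and Icam1, an adhesion molecule, 3.93-fold higher. Tnf and Il6 were under the floor in both pools, and Ccl2 was at 5.71 with DEN and 5.46 without. Of 38 interferon response genes 8 were higher (21.1%), and 35 had a positive difference against 1 with a negative one. Oas1a, an antiviral RNA sensor, was 3.16-fold higher and Gbp2, a guanylate-binding protein, 2.80-fold higher. Of the 8, 3 were also called in the CA-diet pair, in which 10 members were higher.

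Acute phase genes divided. Of 30 members 5 were higher and 4 lower. The lower ones were the serum amyloid A genes Saa1 and Saa2 and the orosomucoids Orm2 and Orm3. Saa2 held the widest lower difference of all named genes, at 8.50 with DEN and 11.54 without, 8.25-fold lower. Saa1, its near-identical neighbour, was at 10.04 with DEN and 12.75 without, 6.53-fold lower. Orm3 was at 6.13 with DEN and 7.22 without, 2.14-fold lower. Lcn2, the iron-binding lipocalin 2, held the widest higher difference of the list, at 12.06 with DEN and 8.32 without, 13.4-fold higher. Cd14, described among the macrophage markers, was also higher. The remaining ones were Il1rn, the antagonist of the IL-1 receptor, at 6.90 with DEN and 5.23 without (3.18-fold higher), Lrg1, a leucine-rich glycoprotein of serum, at 12.43 with DEN and 11.36 without (2.11-fold higher), and Apcs, serum amyloid P, at 12.12 with DEN and 11.06 without (2.08-fold higher). Saa1 and Orm2 differed less in the CA-diet pair, by -1.35 and -0.28, with levels of 10.97 and 8.54 in the DEN pool on CA diet and 12.32 and 8.82 on CA diet alone. Of 25 complement genes 0 were called either way.

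Stress genes of the NRF2 and amino acid responses were higher in part. Of 34 NRF2 targets 9 were higher (26.5%) and 1 lower, the carboxylesterase Ces1g. Beside Cbr3, Gstm3, a glutathione transferase, was at 11.63 with DEN and 9.40 without, 4.69-fold higher, and Srxn1, sulfiredoxin, was at 9.10 with DEN and 7.17 without, 3.81-fold higher. Nqo1, the quinone reductase used as the standard NRF2 readout, was at 7.16 with DEN and 5.71 without, 2.73-fold higher. Hmox1, heme oxygenase, was at 6.40 with DEN and 5.42 without, just short of 2-fold. Of 37 genes of ER stress and the amino acid response 6 were higher and 0 lower. Those named were Psat1 (at least 5.20-fold), Asns (3.48-fold), Trib3 (3.13-fold), Creld2 (2.42-fold) and Atf5 (2.37-fold), where Psat1 and Asns make serine and asparagine and Trib3 and Atf5 belong to the ATF4 pathway. The chaperone Hspa5 was at 13.20 with DEN and 12.52 without. Of 34 heat shock genes 0 were called, and their median difference was 0.00.

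**Figure D3:**
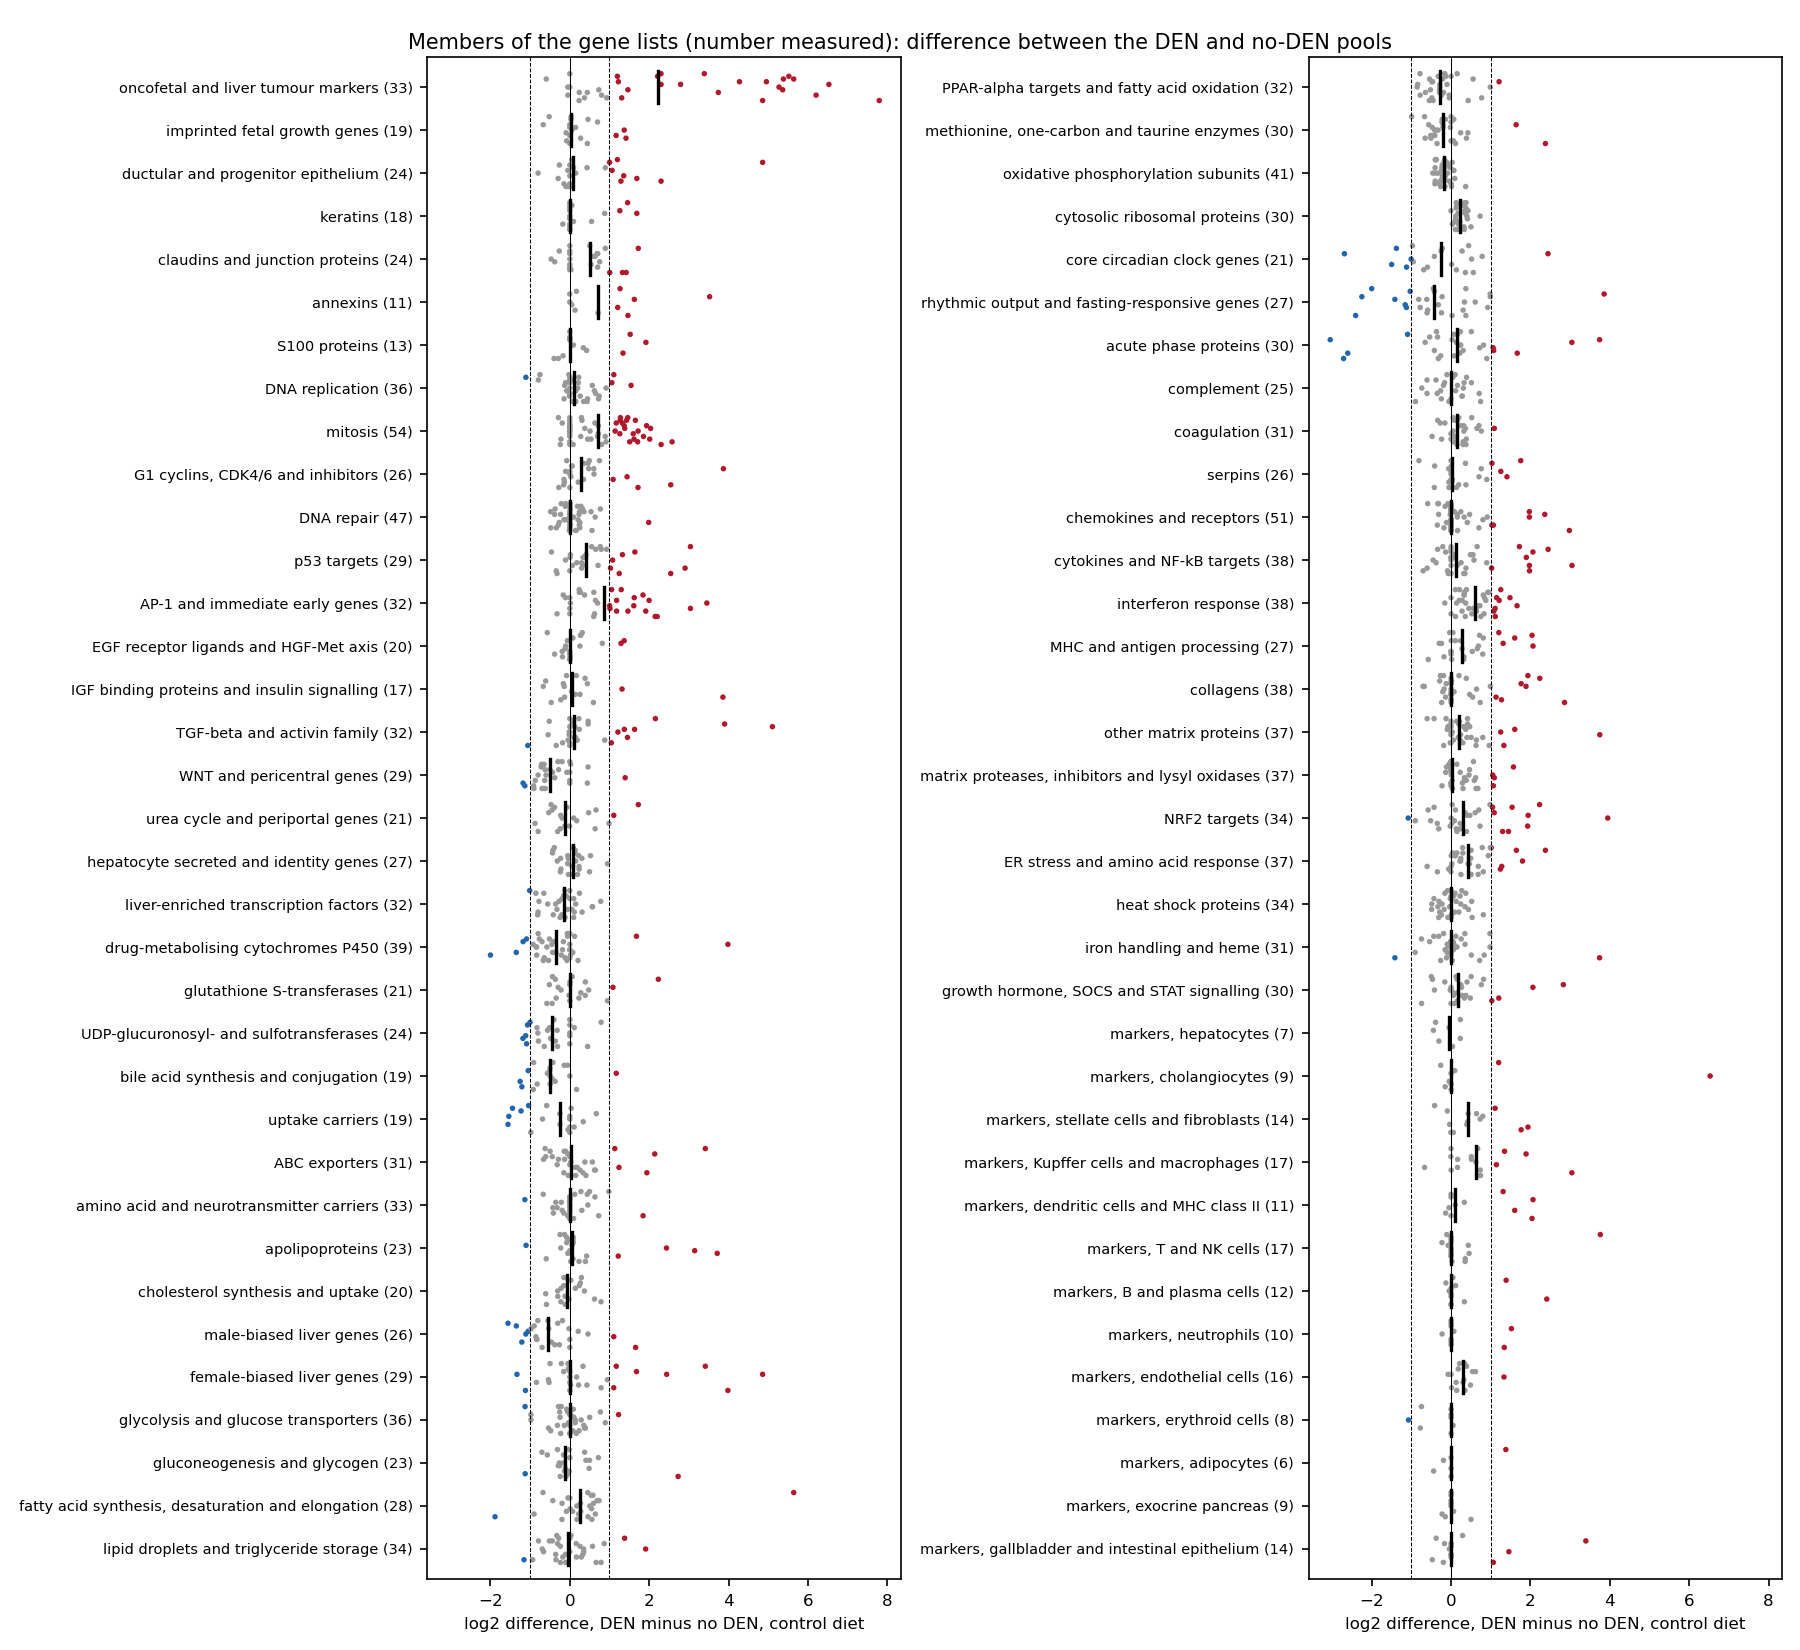
Log2 difference between the DEN and no-DEN pools on control diet for each member of 57 gene lists and 13 marker lists (a gene may stand in several), with 1 dot per gene, the list median as a bar and dashed lines at 2-fold. Among lists with over 20 members, the share of red dots is highest in tumour markers (21 of 33), immediate early genes (16 of 32) and mitosis (22 of 54). Over all lists, the share of blue dots is highest in uptake carriers, rhythmic genes, clock genes and transferases. The lists were chosen with earlier results of these data known, so this order is no independent evidence. Many red and blue dots lie in other lists.

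Among genes that hepatocytes use to take up and conjugate compounds, uptake carriers and UDP-glucuronosyl- and sulfotransferases held calls on the lower side, and glutathione transferases did not. Of 19 uptake carriers 5 were lower (26.3%, against 0.561% of all named genes) and 0 higher. Slc22a7, the organic anion carrier OAT2, was at 7.32 with DEN and 8.86 without, 2.90-fold lower, and Slco2b1, an organic anion transporting polypeptide, was at 9.12 with DEN and 10.34 without, 2.34-fold lower. Slc10a1, the sodium-driven bile acid importer, was at 11.42 with DEN and 12.40 without, just short of 2-fold. All 5 called carriers were also called lower in the CA-diet pair. Of 24 UDP-glucuronosyl- and sulfotransferases 5 were lower (20.8%) and 0 higher, with a median of -0.44. Sult1b1, a sulfotransferase of thyroid hormones and phenols, was at 7.22 with DEN and 8.40 without, 2.27-fold lower, and Ugt3a1 and Ugt3a2, glycosyltransferases of a separate family, were 2.13-fold and 2.09-fold lower. Of 21 glutathione S-transferases 2 were higher, Gstm3 and Gstm1, and 0 lower, with a median of 0.00. Of 31 ABC transporters 5 were higher and 0 lower, with a median of 0.03 and a positive difference in 16 against a negative one in 13. The mean over probe sets gave 3 higher and 1 lower. Abcc4, an exporter of organic anions and bile acids into blood, was at 7.56 with DEN and 5.62 without, 3.84-fold higher, and Abcb1a, the multidrug exporter, was at 6.991 with DEN and 4.849 without, at least 4.41-fold higher.

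Of 39 drug-metabolising cytochromes P450 4 were lower (10.3%) and 2 higher, with a median of -0.35. Cyp1a2, a pericentral enzyme of aromatic amines, was at 11.11 with DEN and 12.29 without, 2.26-fold lower, and Cyp2c54 was at 11.24 with DEN and 12.59 without, 2.55-fold lower. Cyp2e1, the enzyme that activates DEN, was at 13.75 with DEN and 14.18 without, and Cyp3a11 at 14.12 with DEN and 14.28 without. Nr1i3, the nuclear receptor CAR that drives Cyp2b10, was at 7.24 with DEN and 8.25 without, 2.02-fold lower. Of 29 WNT and pericentral genes 2 were lower and 1 higher, with a median of -0.50 and a negative difference in 21. Glul, glutamine synthetase of the cells around the central vein, was at 11.56 with DEN and 12.26 without, Lgr5 at 5.65 with DEN and 6.52 without, and Axin2 at 5.61 with DEN and 5.89 without. Of 21 urea cycle and periportal genes 0 were lower and 2 higher. Of 32 liver-enriched transcription factors Nr1i3 was the only one called, with Hnf4a at 11.85 with DEN and 11.97 without and Cebpa at 8.87 with DEN and 9.43 without.

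Sex-biased liver genes differed on both sides. Of 26 male-biased genes 5 were lower (19.2%) and 2 higher, with a median of -0.54. Of 29 female-biased genes 7 were higher (24.1%) and 2 lower, with a median of 0.00 and a positive difference in 14 against a negative one in 11. Hsd3b5, a male-biased steroid dehydrogenase, was at 10.41 with DEN and 11.62 without, 2.31-fold lower, and Mup10, a major urinary protein outside this list, was 3.74-fold lower (8.79 with DEN, 10.69 without). Cyp17a1, a female-biased hydroxylase in this list, was at 8.51 with DEN and 6.07 without, 5.43-fold higher, and Abcd2, a peroxisomal transporter of fatty acids, was at 8.28 with DEN and 4.86 without, 10.7-fold higher. The lists overlap, since Mcm10, Slco1a1, Prom1 and Cyp2b9 also stand in others.

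Among clock and rhythmic genes more were called lower than higher. Of 21 core clock genes 5 were lower (23.8%) and 1, the clock activator Arntl, was higher, and 9 had a positive difference, with a median of -0.25. Of 27 rhythmic and fasting-responsive genes 7 were lower (25.9%) and 1, Igfbp1, was higher, and 10 had a positive difference, with a median of -0.42. Both lists were chosen with earlier results of these data known, so their counts are no independent evidence of a direction. Usp2, a ubiquitin protease, was at 6.08 with DEN and 8.49 without, 5.29-fold lower, and Upp2, a uridine phosphorylase, was at 9.66 with DEN and 11.91 without, 4.75-fold lower. Tef, a transcription factor of the same family as Dbp, was at 8.08 with DEN and 9.58 without, 2.82-fold lower, and Per2, a repressor of the clock, was at 6.14 with DEN and 7.26 without, 2.18-fold lower. Alas1, the rhythmic first enzyme of heme synthesis, was at 9.83 with DEN and 11.24 without, 2.67-fold lower, and Lpin1, a phosphatidate phosphatase and coactivator, was 2.23-fold lower. Nfil3, the repressor that opposes Dbp and Tef, was at 8.09 with DEN and 7.30 without, and Cry1, a repressor of the core loop, at 6.22 with DEN and 5.70 without. In the CA-diet pair 10 clock genes and 12 rhythmic genes were lower, and all 5 of the clock genes called on the control diet were among them. The hour at which each pool was taken is not given in the labels, and its part in these values was not tested.

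Further genes among the 20 widest lower differences were these. Dio1, the deiodinase that activates thyroid hormone, was at 8.77 with DEN and 10.50 without, 3.31-fold lower, and Thrsp, the thyroid hormone responsive protein of lipogenesis, was at 10.70 with DEN and 12.58 without, 3.69-fold lower. Slc8a1, a sodium-calcium exchanger, was at 5.11 with DEN and 6.78 without, 3.19-fold lower, with 3 other probe sets at the floor. Arrdc2, an arrestin-domain protein, was at 5.56 with DEN and 7.27 without, 3.29-fold lower, and Gpcpd1, a phosphodiesterase of glycerophosphocholine, was at 8.57 with DEN and 10.13 without, 2.96-fold lower.

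Lipid and energy genes showed differences in single members of the lists. Of 23 apolipoproteins and lipoprotein genes 4 were higher and 1 lower. Apoa4, an apolipoprotein that follows liver fat, was at 13.41 with DEN and 9.69 without, 13.1-fold higher, with its other probe set at 4.19. Lpl, the lipoprotein lipase that adult liver expresses weakly, was at 11.90 with DEN and 8.75 without, 8.85-fold higher, and Apoc2, its activator, was at 13.90 with DEN and 11.46 without, 5.41-fold higher. Fabp5 and Fabp4, fatty acid carriers of skin and fat tissue, were 3.76-fold and 2.60-fold higher. Pygb, the brain isozyme of glycogen phosphorylase, was at 7.61 with DEN and 4.89 without, 6.63-fold higher, and Pfkp, the platelet isozyme of phosphofructokinase, was 2.34-fold higher. Pkm and Hk2, glycolytic isozymes of dividing cells, were at 5.49 and 5.08 with DEN and 4.99 and 4.32 without. Fasn and Scd1, for fatty acid synthesis and desaturation, were at 10.25 and 14.15 with DEN and 9.99 and 14.08 without. Of the 28 members of that list 1 was higher, Scd2 (5.64 on the log2 scale), and 1 lower, Thrsp. Of 41 oxidative phosphorylation subunits 0 were called, with a median of -0.18 and a negative difference in 34, and of 30 cytosolic ribosomal proteins 0 were called, with a median of 0.22 and a positive difference in 29. Both medians are small beside 2-fold, and in the CA-diet pair they were -0.24 and 0.23. The hybridization controls, which differed by up to 0.203, are single probe sets and give no measure for a list median.

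The 559 higher genes and 102 lower genes were set against the calls in the CA-diet pair, where 537 genes (2.95%) were higher and 197 (1.08%) lower, or 4.43% and 1.63% of the genes at or above the floor on 1 of its arrays. The 2 pairs shared 377 higher genes, 67.4% of those called in the control-diet pair and 70.2% of those called in the CA-diet pair. They shared 78 lower genes, 76.5% of those called in the control-diet pair and 39.6% of those called in the CA-diet pair. No gene was called in opposite directions. A 1.5-fold limit in the CA-diet pair was passed in the same direction by 90.9% of the higher and 92.2% of the lower genes. The share of all named genes past 1.5-fold in that pair is not given here. This looser limit calls more genes, in the control-diet pair 1276 higher and 487 lower, so these percentages cannot be set beside those at 2-fold. Of the higher genes 3 had a negative difference on the CA diet and of the lower genes 1 had a positive one. The median difference of the higher genes was 1.39 on control diet and 1.26 on CA diet, and that of the lower genes -1.18 and -1.28.

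Some genes differed by much more in 1 of the pairs, and these were chosen after their values were seen. Tspan13, a tetraspanin, was at 7.607 with DEN and 4.848 without on the control diet, at least 6.75-fold higher, and differed by 0.90 on the CA diet. Csn3, kappa-casein, was at 8.27 with DEN and 4.09 without on the control diet, at least 10.7-fold higher, with its other probe set at the floor, and differed by 5.42 on the CA diet. Sqle, the squalene epoxidase, was called in the CA-diet pair, with a low level on CA diet alone, and not in the control-diet pair. It was at 10.24 with DEN and 9.87 without on the control diet, and at 9.06 with DEN and 4.69 without on the CA diet. Cholesterol synthesis as a list held 0 calls among 20 members in the control-diet pair and 10 higher ones in the CA-diet pair.

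**Figure D4:**
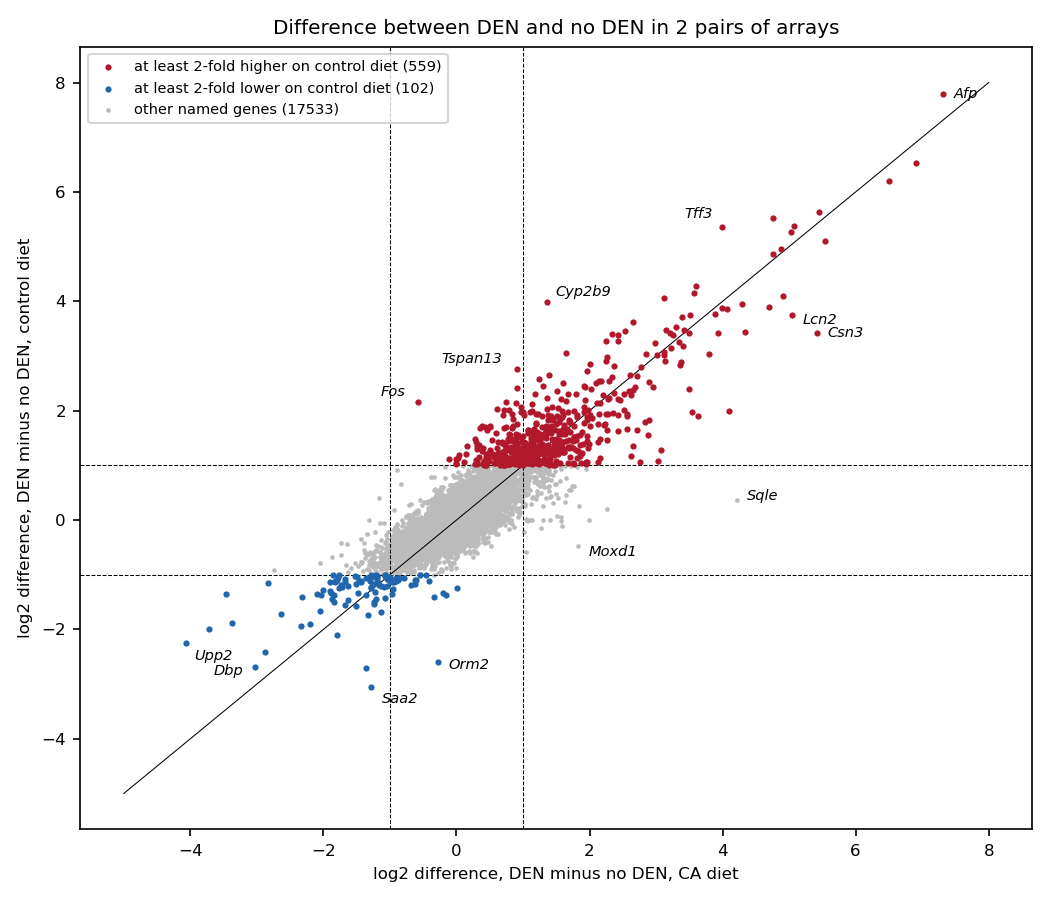
Log2 difference between DEN and no DEN on control diet (vertical axis) and on CA diet (horizontal axis) for all named genes, coloured by the call on control diet; the solid line marks equal differences and dashed lines mark 2-fold. Most called genes lie in the same corner for both pairs, Fos lies across 0 (2.15 and -0.58), and Orm2 and Cyp2b9 lie well off the line.

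Other probe sets of the same genes gave a check within each array. Of the 559 higher genes 324 had other probe sets, and for 119 of them another one was also at least 2-fold higher. For 89 of them all others lay at the floor in both pools, and for 0 was another at least 2-fold lower. Of the 102 lower genes 48 had other probe sets, for 19 of them another one was also called lower, and for 0 was another called higher. The array also names 16 microRNA genes, of which 0 were called, against 3.07% higher and 0.561% lower of all named genes. At these shares so few genes say nothing about microRNAs.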

How the data were processed

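The deposited values are log2 expression values of 45101 probe sets on 4 Affymetrix mouse arrays, which the authors computed by RMA (Partek 6.5, according to the submitters' processing notes). Total RNA of pooled livers was isolated with Trizol and labelled with biotin, per the labels' protocols. RMA draws the arrays to 1 distribution (medians 4.843 to 4.865), so a shift of most genes one way would be removed. With 1 array per group the number of arrays limits the precision.

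Here 34958 probe sets with 1 symbol in the platform annotation were used. The RefSeq annotation (GRCm38.p6) matched 34754 and changed 0 symbols. A gene was represented by whichever of its probe sets averaged highest over the 4 arrays, values under the floor were raised to it, and differences were taken with pandas 2.3.3. No test was made. Steps were tested on simulated data. Genes were named from among the 20 widest each way, up to 5 members of each list each way, and a set of liver genes. The members and lists were chosen with earlier results of these data known. List members without such a probe set are not analysed here. Among the genes this rule gives, 1 is not reported here. Alternatives were 4 floors or filters, 2 thresholds, 3 scalings and 3 ways to pick probe sets.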

Additional observations from a re-analysis of the deposited data

Results flagged for a closer look

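Fos stood out because its difference had opposite signs in the 2 DEN pairs. It was at 7.34 with DEN and 5.19 without on the control diet, a difference of 2.15, and at 8.44 with DEN and 9.02 without on the CA diet, a difference of -0.58. Whether the pairs differ was not tested.

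Probe sets that carry no single gene symbol were outside the comparison. Of 10092 such probe sets, 94 were at least 2-fold higher in the DEN pool and 23 at least 2-fold lower. The widest higher one, annotated with 2 symbols, was at 9.71 with DEN and 4.15 without.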

How the results depend on the processing

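The count of higher genes was 276 with the floor at the upper quartile (6.643), 1276 with a 1.5-fold limit, 211 with a 3-fold limit and 363 with the mean over probe sets, against 559. The count of lower genes was 487 and 15 with the 1.5-fold and 3-fold limits, 163 with median centring and 172 with every probe set counted alone, against 102. The other counts of higher and lower genes stayed within 1.5 times, among them no floor (695 and 115), a filter on the mean over 4 arrays (597 and 105), quantile normalization (489 and 118) and loess (541 and 106). Lists with a median of at least 0.5 numbered 7, and 11 with the filter on the mean, 1 with the upper-quartile floor, 4 with median centring and 4 with the mean over probe sets. Lists with a median of at most -0.5 numbered 1, and 5 with the filter on the mean, 2 with quantile normalization, 5 with median centring, 2 with loess and 0 with the mean over probe sets. Of 70 lists 4 had a median that changed sign under a scaling, all within 0.069 of 0: IGF and insulin genes, apolipoproteins, and both hepatocyte lists. Of 209 named called genes, 109 passed 2-fold under all 9 settings that keep the 2-fold limit, while 69 missed it with the upper-quartile floor and 46 with the mean over probe sets. The causes were not tested. The floor at the 95th percentile of olfactory and vomeronasal receptor probe sets (542 and 102) was run after the data were seen, with 80 such probe sets instead of the 100 planned for.

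No paired analysis was possible because each group is 1 array with no replicate numbers. Mouse-to-mouse spread, tumour share of the pools and time of killing cannot be separated from DEN. Levels near the floor carry little signal over background. Only folds with a value under the floor are given as bounds. Folds of Abcd2, Cyp2b9, Fst and Cbr3 are printed as measured, although their levels without DEN (4.86, 4.87, 4.97 and 4.98) were just above the floor. These levels lay under the 95th percentile of the receptor probe sets (4.998). So did those of Pygb and Btc, whose folds are also printed as measured.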
